A study of Drosophila melanogaster with 10 samples.

Results

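Renal stem cell and growth signalling genes were followed in the Malpighian tubule, the excretory organ of the adult fly, and in the whole fly. The list held 10 genes, which were the zinc finger gene esg, the JAK-STAT genes dome, hop, Stat92E and Socs36E, the Notch pathway genes N and Delta, and the receptor tyrosine kinase genes Egfr, Pvr and InR. A probe set of the array counted for a gene when the annotation gave that gene, and no other, for it. By that rule 7 of the 10 genes were measured, with 10 of the 13966 probe sets tested. Delta is listed in the annotation under that name and in the gene list as Dl. The genes hop, Socs36E and N had no such probe set and are not analysed here.

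The flies were adult Drosophila melanogaster of the wild-type strain Oregon R, of mixed sexes and 7 days old. The tubule group was RNA of Malpighian tubules dissected from many flies and pooled, on 5 arrays, and the whole fly group was RNA of intact flies of the same cultures, on 5 arrays. Arrays of the same number, 2 to 6, came from the same culture and were taken as a pair, and no allele, transgene or treatment was used in either group. Whole flies contain tubules, so that a ratio of tubule to whole fly compares the organ with a mixture that includes it. Tubule RNA is a mixture of its cell types, and fewer cells of a type and less RNA per cell cannot be told apart in such samples. The signal of each probe set is in the units of the Affymetrix MAS 5.0 software, in which each array is scaled to a common trimmed mean of 100. As enrichment, the ratio of tubule over whole fly signal was formed in each pair and averaged over the 5 pairs. Tests were made with limma on log2 signals with the pair as a block, and a change was called at a Benjamini-Hochberg adjusted p under 0.05 over all probe sets.

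The tubule of the adult is built of large principal and stellate cells that have left the cell cycle, and it holds a small population of diploid cells, the renal stem cells, mostly in the lower tubules and ureters. These cells are recognised by expression of escargot (esg), a zinc finger repressor of the Snail family. In the JAK-STAT pathway, secreted Unpaired proteins bind the receptor Domeless (dome), the kinase Hopscotch (hop) phosphorylates Stat92E, and Stat92E enters the nucleus and induces its targets, among them the feedback inhibitor Socs36E. In the Notch pathway, Delta on one cell binds Notch (N) on its neighbour, and the cleaved receptor acts in the nucleus. Egfr, Pvr and InR are receptor tyrosine kinases for Spitz-like ligands, for PDGF- and VEGF-related factors (Pvf) and for insulin-like peptides, and act through Ras and through PI3-kinase and TOR.

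The labelled tissue was checked against marker lists. All 6 measured principal cell markers were higher in tubule, with summed signals of 11516 to 13354 in tubule and 2883 to 3883 in whole fly. Of 6 stellate cell markers 4 were higher and 1 lower. All 6 muscle markers, 9 of 10 midgut markers and 11 of 12 female germline markers were lower in tubule. Over all genes, each counted by 1 probe set, 16.5% were higher and 40.3% lower in tubule. Among these lists the midgut markers, digestive enzymes for the most part, varied most between tubule arrays, with summed signals of 8659, 11397, 729.9, 7339 and 1683 on tubule arrays 2 to 6, against 25442 to 33796 in whole fly. Tubule arrays 4 and 6 thus held the least midgut signal. For 37 probe sets followed across all settings, values in these pairs alone are given below where the call changed. The calls of other genes of the lists were followed only after quantile normalization and with the ribosomal protein transcript RpL32 held constant. The 9 measured cell cycle genes, PCNA and the cyclins CycB and CycE among them, were all lower in tubule, beside 40.3% of all genes. Their summed signals were 226 to 545 in tubule and 2807 to 4296 in whole fly. The part of germline RNA in this difference was not tested.

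Of the 7 measured genes, 3 were higher in tubule (Pvr, InR and Stat92E), 2 were lower (dome and Delta) and 2 did not pass the test (Egfr and esg). Each gene is here counted by its probe set of highest mean signal. Over all 10844 genes counted in the same way, 16.5% were higher and 40.3% lower in tubule, and with 3 and 2 of 7 genes nothing is read from the shares. The median log2 fold change of the 7 genes was -0.39, against -0.44 over all genes. On the level of single arrays, Pvr was the gene whose tubule signals all lay above its whole fly signals, and Delta the one whose tubule signals all lay below. Over all probe sets 14.1% had every tubule array above every whole fly array, 29.6% had every one below, and 56.3% overlapped.

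**Figure D1:**
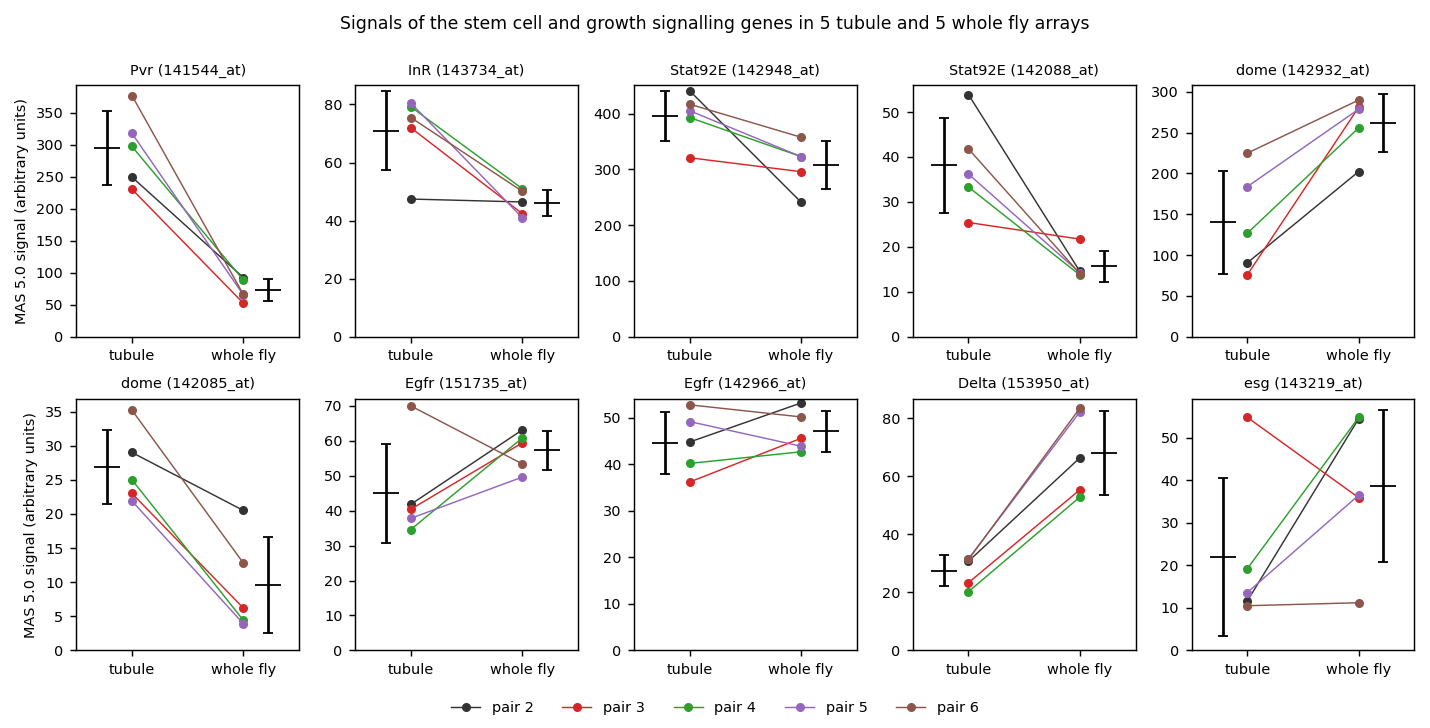
Signal of each probe set of the 7 measured genes on each array, in MAS 5.0 units on a linear axis from 0, with tubule arrays left and whole fly arrays right, arrays of a pair joined by a line and bars for the mean ± SD of each group. Pvr lies wholly higher in tubule (230.4 to 376.9, against 52.1 to 92.3 in whole fly) and Delta wholly lower (20.2 to 31.5, against 52.8 to 83.4), while the groups overlap for InR, Egfr, esg and the brighter probe sets of Stat92E and dome.

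The tubule to whole fly differences ran in the order Pvr, InR, Stat92E, Egfr, esg, dome and Delta, taken by log2 fold change. Pvr stood clear of its neighbour in this order, since its lowest within-pair ratio, 2.70, was above the highest of InR, 1.96. Every other pair of neighbours in the order had within-pair ratios that overlapped. The median log2 fold change of all probe sets was -0.32. Relative to that median, Pvr stood 2.35 above, InR 0.92 above and Stat92E 0.68 above, and Delta stood at -0.99.

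**Figure D2:**
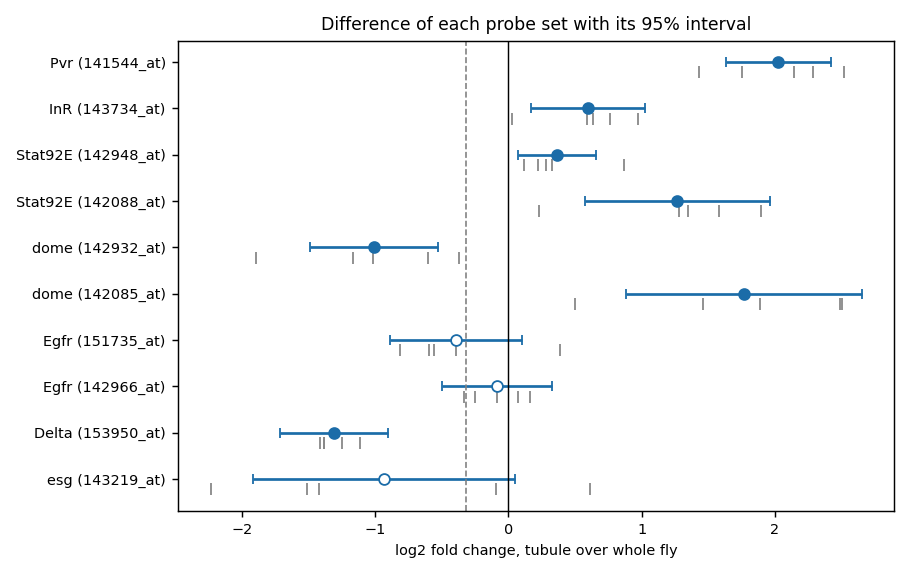
Log2 fold change of tubule over whole fly for each of the 10 probe sets, with its 95% confidence interval and the 5 within-pair log2 ratios as ticks, and filled points for an adjusted p under 0.05 by limma. The dashed line is the median of all 13966 probe sets (-0.32), and Pvr at 2.03 lies furthest above it among the probe sets that stand for a gene.

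Pvr, the receptor for the Pvf growth factors that is best known for haemocyte survival and cell migration, was the most enriched of the genes. Its signals on tubule arrays 2 to 6 were 249.4, 230.4, 297.3, 317.8 and 376.9, against 92.3, 52.1, 88.4, 65.2 and 65.8 on the whole fly arrays. Every tubule array was above every whole fly array. The mean was 294 ± 58.1 in tubule and 72.8 ± 17.0 in whole fly (SD, n = 5 each), an enrichment of 4.22 ± 1.20. The log2 fold change was 2.03 (95% confidence interval 1.63 to 2.42, limma adjusted p = 3.3e-05). The call held in each alternative tried that tested it, with every pair left out in turn among them. Haemocytes also carry Pvr. Of 9 measured haemocyte markers 6 were lower and none was higher in tubule, beside 40.3% and 16.5% of all genes. After quantile normalization 1 of them, crq, was higher. Only 1 of the 9 had a mean signal of at least 50. The summed signals of the 9 were 127 to 167 in tubule and 319 to 414 in whole fly. Among the lower markers, Hml, a secreted clotting protein, and srp, a GATA factor, had means of 10.7 and 5.36 in tubule, against 52.1 and 31.3 in whole fly. The 3 markers that did not pass the test were NimC1, eater and crq. Their log2 fold changes were -0.78, -0.004 and 0.54 (limma adjusted p = 0.47, 0.997 and 0.058). The part of haemocyte RNA in the Pvr signal was not tested.

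The ligands of Pvr were measured too. Pvf1 had signals of 99.1, 117.4, 86.1, 120.3 and 136.1 in tubule, against 78.1, 47.7, 46.8, 60.2 and 48.4 in whole fly. All 5 tubule signals were the higher, with an enrichment of 2.08 ± 0.592 and a log2 fold change of 1.0 (adjusted p = 0.0025). Pvf2 had signals of 40.9, 24.9, 35.6, 17.3 and 38.4 in tubule, against 9.6, 12.9, 4.5, 5.1 and 4.7 in whole fly. These do not overlap either and gave an enrichment of 5.13 ± 2.78 (log2 fold change 2.16, adjusted p = 0.0020), but every value is under a signal of 50, and with a floor of 50, to which lower signals were raised, no difference is left to test. Pvf3 averaged 15.4 ± 7.38 in tubule and 13.3 ± 3.70 in whole fly, and none of its 4 probe sets passed the test.

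Downstream of the receptor, Crk, an adaptor protein, averaged 368 ± 18.1 in tubule and 255.1 ± 29.99 in whole fly, an enrichment of 1.46 ± 0.157 (adjusted p = 0.0022). With the ribosomal protein transcript RpL32 held constant its log2 fold change was 0.20 (adjusted p = 0.18), and in pairs 4 and 6 alone it was 0.40 (adjusted p = 0.12). Ced-12, which acts with Crk on Rac, averaged 21.7 ± 4.28 in tubule and 31.6 ± 3.75 in whole fly, was lower in tubule in each of the 5 pairs and did not pass the test (adjusted p = 0.098). Of the 6 measured genes of the PVR list 4 were higher and none was lower, beside 16.5% and 40.3% of all genes. Their median log2 fold change was 0.77. With RpL32 held constant 3 were higher and 1, Ced-12, was lower, beside 1451 and 6453 of all 13966 probe sets.

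InR, the receptor of the insulin-like peptides, was higher in tubule by a smaller factor. Its signals were 47.4, 72.0, 79.2, 80.5 and 75.5 in tubule, against 46.4, 42.4, 51.0, 41.0 and 50.1 in whole fly. On tubule arrays 3 to 6 the signal was above all whole fly arrays, whereas tubule array 2 lay within their range. The mean was 70.9 ± 13.6 in tubule and 46.2 ± 4.47 in whole fly, an enrichment of 1.55 ± 0.344. The log2 fold change was 0.60 (95% confidence interval 0.17 to 1.03, adjusted p = 0.026), with tubule higher in 5 of 5 pairs. After quantile normalization it was 1.18 (adjusted p = 0.0014). The call was lost without pair 3, 4, 5 or 6 (adjusted p = 0.078, 0.065, 0.085 and 0.064), with RpL32 held constant (log2 fold change 0.26, adjusted p = 0.36) and in pairs 4 and 6 alone (adjusted p = 0.17).

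Egfr, the receptor of Spitz, Keren, Gurken and Vein, did not pass the test with either of its probe sets. The brighter probe set gave 41.8, 40.4, 34.6, 37.8 and 70.0 in tubule, against 63.1, 59.4, 60.8, 49.6 and 53.4 in whole fly. Tubule was the lower in each pair but pair 6. The mean was 44.9 ± 14.3 in tubule and 57.3 ± 5.59 in whole fly, with a log2 fold change of -0.39 (95% confidence interval -0.89 to 0.10, adjusted p = 0.16). The other Egfr probe set gave 44.6 ± 6.68 in tubule and 47.1 ± 4.43 in whole fly, with a log2 fold change of -0.09 (95% confidence interval -0.50 to 0.33, adjusted p = 0.71). The direction of Egfr depended on the scaling, since after quantile normalization these log2 fold changes were 0.21 (adjusted p = 0.43) and 0.56 (adjusted p = 0.031), and with RpL32 held constant the brighter probe set was called lower (-0.73, adjusted p = 0.035).

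Stat92E, the transcription factor of the JAK-STAT pathway, was measured by 2 probe sets, both higher in tubule. The brighter one gave 441.4, 321.1, 393.3, 405.6 and 417.3 in tubule, against 241.4, 296.1, 323.2, 323.1 and 357.9 in whole fly. Tubule was higher in each of the 5 pairs, although tubule array 3 lay within the range of the whole flies. The mean was 396 ± 45.3 in tubule and 308 ± 43.4 in whole fly, an enrichment of 1.31 ± 0.297 and a log2 fold change of 0.36 (95% confidence interval 0.07 to 0.65, adjusted p = 0.040). This call was the least secure among the genes. It was lost without pair 2, 4, 5 or 6 (adjusted p = 0.080, 0.071, 0.079 and 0.066), after quantile normalization (log2 fold change 0.23, adjusted p = 0.17), with RpL32 held constant (0.03, adjusted p = 0.87), with a floor of 50 (adjusted p = 0.091), without an intensity trend in the variance (adjusted p = 0.12), in pairs 4 and 6 alone (0.25, adjusted p = 0.29) and at the unadjusted threshold of the methods' t-test.

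The dimmer Stat92E probe set gave 53.9, 25.4, 33.3, 36.2 and 41.8 in tubule, against 14.5, 21.7, 13.7, 14.2 and 14 in whole fly. Here every tubule array was above every whole fly array. The enrichment was 2.57 ± 0.931, and the log2 fold change was 1.27 (95% confidence interval 0.57 to 1.96, adjusted p = 0.0078). All but one of its signals are under 50, and with a floor of 50 the log2 fold change was 0.02 (adjusted p = 0.60). In pairs 4 and 6 alone it was 1.43 (adjusted p = 0.062). The mean of both probe sets gave Stat92E a log2 fold change of 0.82 (adjusted p = 0.0058).

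dome, which encodes the Unpaired receptor, gave opposite calls with its 2 probe sets. The brighter gave 90.4, 75.7, 126.7, 183.8 and 224.9 in tubule, against 202.4, 281.3, 256.0, 278.9 and 290.1 in whole fly. Tubule was the lower in all 5 pairs, and only tubule array 6 reached the whole fly range. The mean was 140 ± 63.0 in tubule and 262 ± 35.5 in whole fly, an enrichment of 0.529 ± 0.196 and a log2 fold change of -1.01 (95% confidence interval -1.49 to -0.53, adjusted p = 0.0039). In pairs 4 and 6 alone the log2 fold change was -0.69 (adjusted p = 0.056). Among the tubule arrays the signal of this probe set varied by a coefficient of variation of 44.9%, against 13.6% in whole fly and a median of 16.9% in tubule for probe sets that average 50 or more.

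The dimmer dome probe set gave 29.0, 23.0, 25.0, 21.9 and 35.2 in tubule, against 20.5, 6.2, 4.4, 3.9 and 12.8 in whole fly. All tubule arrays were above all whole fly arrays, though every signal was low. The enrichment was 3.83 ± 1.85 and the log2 fold change 1.77 (95% confidence interval 0.89 to 2.65, adjusted p = 0.0049), and with a floor of 50 no difference is left. The mean of both probe sets gave a log2 fold change of 0.38 (adjusted p = 0.19), so that the direction of dome rests on which probe set is read. Of all 1209 genes with more than 1 probe set, 44, or 3.64%, had one called higher and another called lower.

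Delta, the ligand of Notch, was the gene of the list that was lowest in tubule relative to whole fly. Its signals were 30.7, 23.3, 20.2, 31.5 and 31.3 in tubule, against 66.3, 55.3, 52.8, 82.1 and 83.4 in whole fly. Every tubule array was below every whole fly array. The mean was 27.4 ± 5.28 in tubule and 68.0 ± 14.4 in whole fly, an enrichment of 0.405 ± 0.0370. The log2 fold change was -1.31 (95% confidence interval -1.72 to -0.90, adjusted p = 4.0e-04), with a floor of 50 it was -0.42 (adjusted p = 0.070) and after quantile normalization -0.64 (adjusted p = 0.014). The within-pair ratios were 0.463, 0.421, 0.383, 0.384 and 0.375, and in both tissues arrays 2 to 4 had less signal than arrays 5 and 6 and array 4 had the least. Delta is also used in the ovary and in neural tissue, and the female germline markers summed to 4827 to 7498 in tubule and 26975 to 38978 in whole fly. The part of germline RNA in the Delta difference was not tested.

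esg, the marker of the renal stem cells, did not pass the test. Its signals were 11.6, 54.8, 19.2, 13.6 and 10.5 in tubule, against 54.5, 35.9, 54.8, 36.5 and 11.2 in whole fly. Tubule was lower in each pair but pair 3, and both groups spanned much of the same range. The mean was 21.9 ± 18.7 in tubule and 38.6 ± 17.9 in whole fly, and the log2 fold change was -0.93 (95% confidence interval -1.91 to 0.05, adjusted p = 0.10). The coefficient of variation was 85.1% in tubule and 46.3% in whole fly, against medians over all probe sets of 28.9% and 23.6%. Without pair 3, in which tubule array 3 held the high signal, esg was called lower (log2 fold change -1.32, adjusted p = 0.035). It was also called lower with RpL32 held constant (-1.27, adjusted p = 0.048), whereas after quantile normalization the log2 fold change was -0.15 (adjusted p = 0.79). Most of its signals are under 50, and with a floor of 50 the log2 fold change was -0.02 and esg was not called. On tubule array 3 the summed signals of the midgut markers (11397) and of the enteroendocrine markers (252.8) were also the highest among the tubule arrays. The other tubule arrays did not follow that order. Arrays 2 and 5 had the next highest midgut sums (8659 and 7339) with esg at 11.6 and 13.6. Array 4 had the lowest midgut sum (729.9) with esg at 19.2. esg is also expressed by the progenitor cells of the midgut, and the part of gut RNA in this signal was not tested.

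The other Snail family genes, sna and wor, are repressors known from embryonic mesoderm and from neuroblasts. sna averaged 26.3 ± 5.14 in tubule and 24.1 ± 12.4 in whole fly, and wor 19.96 ± 6.77 in tubule and 14.4 ± 8.30 in whole fly. Neither passed the test (log2 fold changes 0.32 and 0.59, adjusted p = 0.51 and 0.15), and both were called higher after quantile normalization (1.13 and 1.43, adjusted p = 0.035 and 0.0038).

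**Figure D3:**
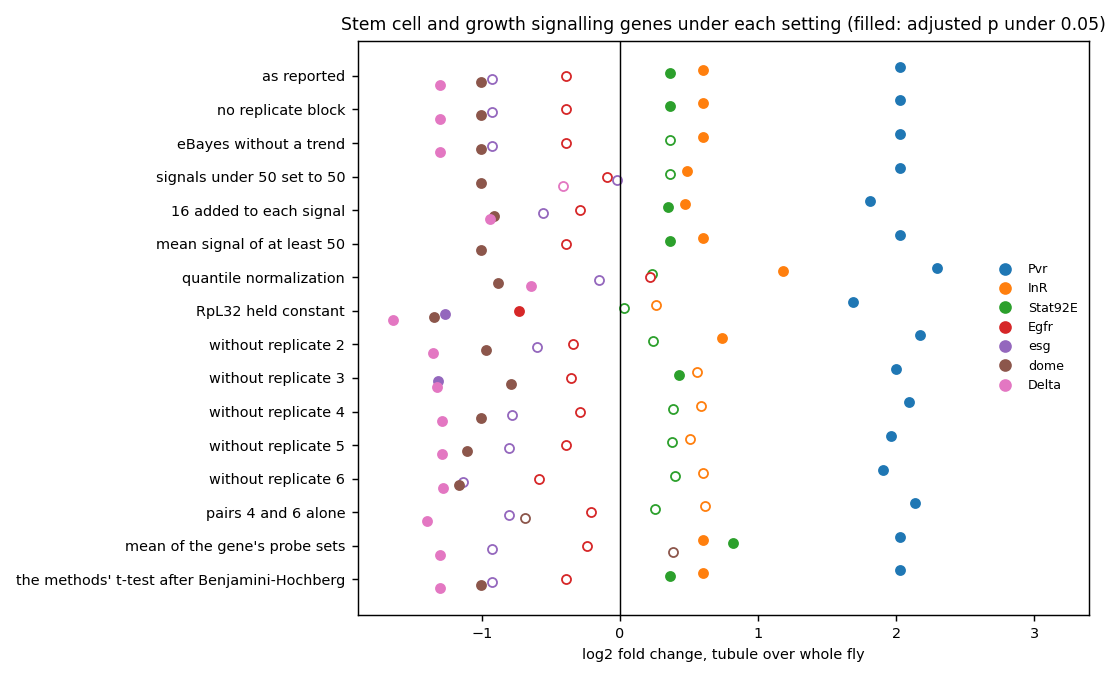
Log2 fold change of tubule over whole fly of each of the 7 genes, by the probe set that stands for it, as reported and under the alternative settings, with filled points for an adjusted p under 0.05. Pvr lies furthest right and is called in every line, dome moves to 0.38 when its probe sets are averaged, and Egfr lies right of 0 with quantile normalization.

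The rest of each pathway was read from lists of genes with known roles. In 5 lists, of the JAK-STAT, Notch, EGFR and Ras, PVR, and insulin and TOR pathways, 82 of 117 genes had a probe set of their own. Of these 18, or 21.95%, were higher in tubule and 30, or 36.6%, were lower, beside the 16.5% and 40.3% over all genes. The median log2 fold change was -0.32, against -0.44 over all genes. With quantile normalization 25 were higher and 21 lower, beside 4148 and 3446 of all 13966 probe sets. With RpL32 held constant 9 were higher and 42 lower, beside 1451 and 6453 of all probe sets. The balance between higher and lower thus moves with the scaling, for these genes as over all probe sets. After quantile normalization the median of all probe sets was raised by 0.50 on the log2 scale, and with RpL32 held constant it dropped by 0.34.

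**Figure D4:**
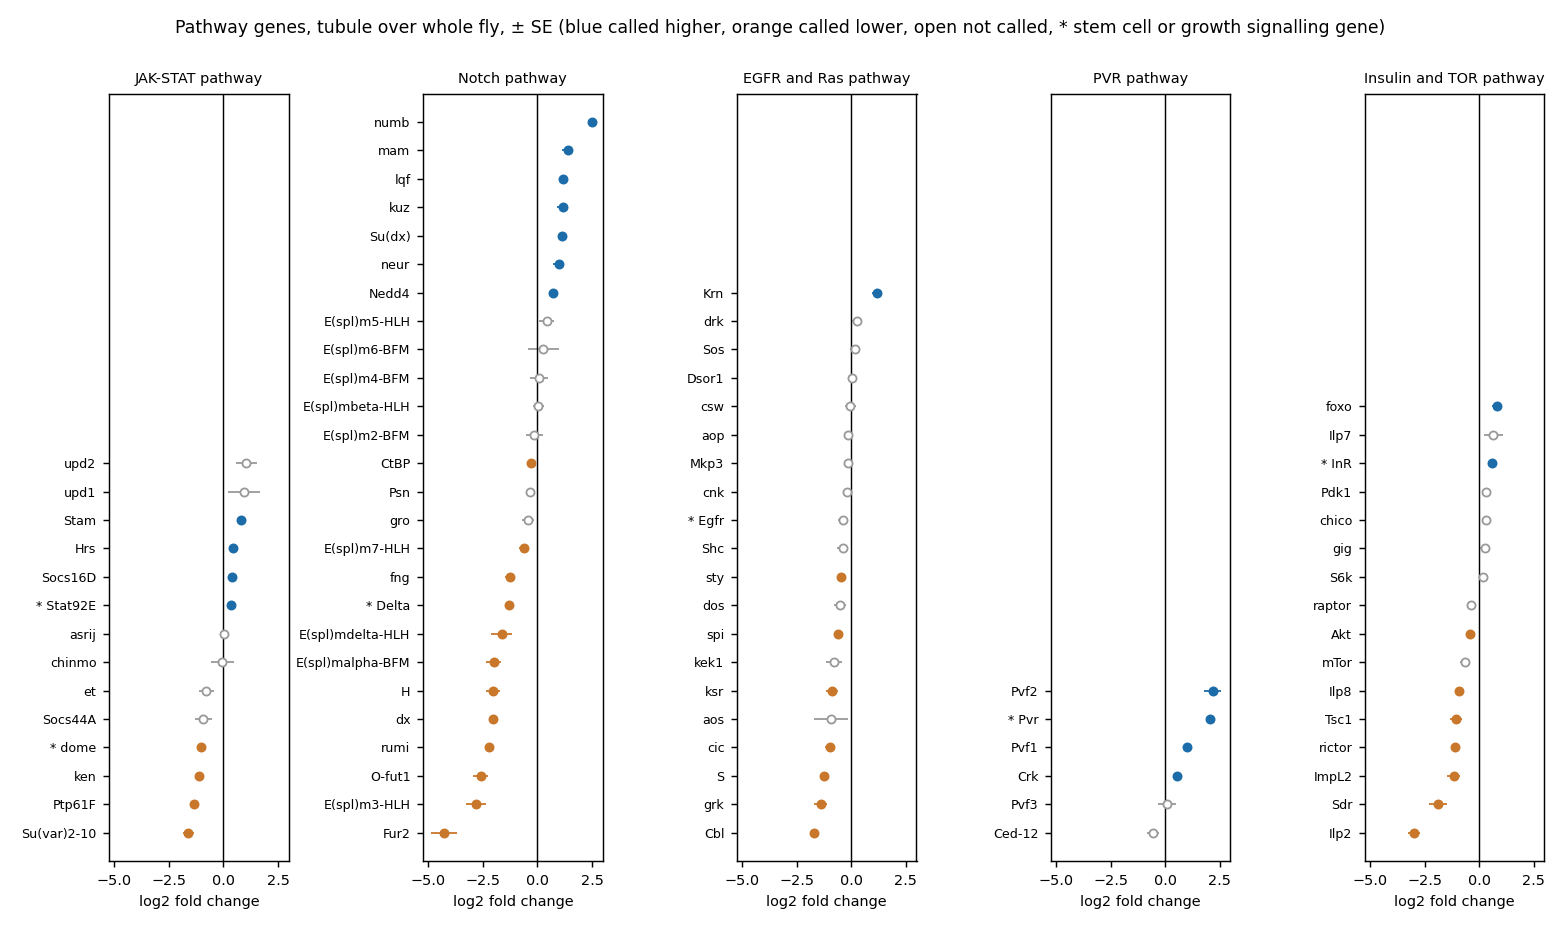
Log2 fold change of tubule over whole fly, with its standard error, of each measured gene in the 5 pathway lists, blue for genes called higher, orange for genes called lower and open for genes that did not pass the test, with an asterisk at the listed stem cell and growth signalling genes. The PVR list has no gene called lower, while numb (2.48) lies highest and Fur2 (-4.27) lowest in the Notch list.

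In the JAK-STAT list 14 of 17 genes were measured, with a median log2 fold change of -0.01. Of these 4 were higher and 4 lower, beside 16.5% and 40.3% of all genes. With RpL32 held constant none was higher and 6 were lower, beside 1451 higher and 6453 lower of all 13966 probe sets. The measured ligands had low signals, with upd1 at 7.78 ± 6.12 in tubule and 3.84 ± 4.38 in whole fly, and upd2 at 3.76 ± 1.66 in tubule and 1.82 ± 0.653 in whole fly. Neither passed the test (adjusted p = 0.32 and 0.10), although upd2 was called higher after quantile normalization. The second receptor gene of the pathway, et, averaged 9.04 ± 0.702 in tubule and 16.3 ± 5.32 in whole fly and did not pass the test (adjusted p = 0.079).

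Of 5 measured inhibitors of the pathway 3, or 60%, were lower in tubule, beside 40.3% of all genes. With 5 genes nothing is read from this share. Ptp61F, a tyrosine phosphatase that acts on Hop and Stat92E, gave 53.9, 78.6, 69.2, 95.2 and 95.8 in tubule, against 168.8, 194.4, 179.0, 236.2 and 214.5 in whole fly. All tubule signals were the lower, with an enrichment of 0.392 ± 0.0463 (log2 fold change -1.36, adjusted p = 4.9e-05). Su(var)2-10, the PIAS protein that binds Stat92E, averaged 19.5 ± 5.63 in tubule and 58.2 ± 12.8 in whole fly (adjusted p = 0.0011). Its signals are mostly near or under 50, and with a floor of 50 the log2 fold change was -0.23 (adjusted p = 0.22). ken, a repressor of a subset of Stat92E targets, averaged 71.0 ± 9.85 in tubule and 159.8 ± 50.4 in whole fly, an enrichment of 0.477 ± 0.138 (adjusted p = 0.0012).

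Socs16D, of the suppressor of cytokine signalling family to which Socs36E belongs, was the inhibitor that was higher, at 133 ± 15.2 in tubule and 102 ± 6.55 in whole fly (enrichment 1.31 ± 0.190, adjusted p = 0.038). The call was lost without pair 3, 4, 5 or 6 (adjusted p = 0.10, 0.11, 0.061 and 0.095), with RpL32 held constant (adjusted p = 0.85), without an intensity trend (adjusted p = 0.082) and in pairs 4 and 6 alone (adjusted p = 0.13). Stam and Hrs, partners in endosomal sorting of receptors, were both higher. Stam averaged 63.7 ± 5.43 in tubule and 37.2 ± 10.5 in whole fly (enrichment 1.84 ± 0.604, adjusted p = 0.012), and Hrs 220.3 ± 32.4 in tubule and 159.9 ± 17.2 in whole fly (enrichment 1.38 ± 0.159, adjusted p = 0.0083). With RpL32 held constant and in pairs 4 and 6 alone neither passed the test (adjusted p = 0.11 and 0.067 for Stam, and 0.50 and 0.066 for Hrs).

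In the Notch list 26 of 36 genes were measured, with a median log2 fold change of -0.32. Of these 7 were higher and 12 lower, beside 16.5% and 40.3% of all genes. After quantile normalization 8 were higher and 9 lower, beside 4148 higher and 3446 lower of all 13966 probe sets. numb, whose product is inherited by one daughter of a dividing cell and inhibits Notch there, gave 635.5, 739.8, 1002.1, 616.7 and 673.6 in tubule, against 115.9, 129.3, 127.3, 125.9 and 152.2 in whole fly. Its tubule signals were all several times the highest whole fly signal. The enrichment was 5.68 ± 1.33 (log2 fold change 2.48, adjusted p = 2.4e-06), a larger change than that of any of the 7 listed genes.

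Both measured genes that act on the ligand in the signalling cell were higher, neur by 1 of its 2 probe sets. Over all genes 16.5% were higher, and from so few genes nothing is read. neur, a ubiquitin ligase for Delta, gave 67.0, 69.1, 59.3, 89.4 and 67.1 in tubule, against 51.6, 52.3, 19.1, 28.7 and 37.0 in whole fly, an enrichment of 2.13 ± 0.917 (adjusted p = 0.011), while its other probe set, at 13.0 ± 5.28 in tubule and 9.72 ± 2.39 in whole fly, did not pass the test (adjusted p = 0.47). lqf, the epsin needed for Delta endocytosis, averaged 591 ± 32.7 in tubule and 259 ± 22.8 in whole fly, an enrichment of 2.30 ± 0.284 (adjusted p = 3.2e-05). With RpL32 held constant neur was not called. kuz, the metalloprotease that cleaves Notch at the cell surface, was also higher, with an enrichment of 2.37 ± 0.924 (adjusted p = 0.0044).

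Of 6 measured inhibitors of the pathway 3 were higher, numb among them, and 2 were lower, beside 16.5% and 40.3% of all genes. The co-repressor H had a log2 fold change of -2.02 (adjusted p = 8.0e-04) and its partner CtBP one of -0.30 (adjusted p = 0.041), while the other H probe set was not called (0.34, adjusted p = 0.36). The ubiquitin ligases Su(dx) and Nedd4, which send Notch to degradation, were both higher in tubule. Su(dx) had an enrichment of 2.28 ± 0.614 (adjusted p = 6.3e-04) and Nedd4 one of 1.63 ± 0.216 (adjusted p = 7.8e-04), and Nedd4 was not called with RpL32 held constant. mam, the co-activator of nuclear Notch, averaged 862 ± 89.0 in tubule and 370.4 ± 212 in whole fly by its brighter probe set (enrichment 2.88 ± 1.43, adjusted p = 0.0016). That probe set carries the suffix for sequences shared by a gene family, the other mam probe set had a log2 fold change of -0.56 that was not called (adjusted p = 0.34), and their mean gave 0.41 (adjusted p = 0.28).

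All 3 measured genes of Notch receptor glycosylation were lower in tubule, beside 40.3% of all genes, and from 3 genes nothing is read. O-fut1, which adds fucose to the receptor, gave 22.3, 6.8, 18.0, 30.5 and 23.8 in tubule, against 64.5, 120.9, 87.0, 165.2 and 141.8 in whole fly (enrichment 0.192 ± 0.104, adjusted p = 3.7e-04). rumi, which adds glucose, gave 26.9, 29.3, 23.9, 27.5 and 39.5 in tubule, against 91.6, 154.2, 116.4, 182.1 and 159.1 in whole fly (enrichment 0.218 ± 0.0549, adjusted p = 2.8e-05). No tubule array of either gene reached the lowest whole fly array. fng, which extends the fucose and changes the response to the ligands, had an enrichment of 0.429 ± 0.112 (adjusted p = 0.0024) and was not called after quantile normalization, where its log2 fold change was -0.54. It averaged 21.5 ± 4.60 in tubule and 51.1 ± 7.32 in whole fly, so that its signals are mostly near or under 50.

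Of the other genes of the list, the furin gene Fur2 averaged 5.96 ± 6.91 in tubule and 66.0 ± 13.0 in whole fly (log2 fold change -4.27, adjusted p = 4.5e-04). On tubule arrays 3 and 4 its signals were 0.9 and 1.1, near the lowest value on any array, and with a floor of 50 the difference was -0.38 (adjusted p = 0.073). dx, a positive regulator of Notch, was lower with an enrichment of 0.248 ± 0.0675 (adjusted p = 4.3e-05). Of 9 measured target genes none was higher and 4, or 44.4%, were lower, near the 40.3% of all genes. Every target gene of the list belongs to the Enhancer of split complex, so that other targets were not examined. Only 1 of the 9, E(spl)mbeta-HLH, had a mean signal of at least 50, and it did not pass the test. The signals of E(spl)mdelta-HLH, which was called lower, were under 50 on every array. E(spl)m3-HLH averaged 10.3 ± 5.93 in tubule and 67.1 ± 26.2 in whole fly (adjusted p = 0.0012), not called with a floor of 50 (adjusted p = 0.11) or in pairs 4 and 6 alone (adjusted p = 0.058). After quantile normalization the targets E(spl)m7-HLH and E(spl)mdelta-HLH lost their calls and E(spl)m5-HLH was called higher.

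In the EGFR and Ras list 20 of 30 genes were measured, with a median log2 fold change of -0.43. Of these 1 was higher and 7 were lower, beside 16.5% and 40.3% of all genes. The gene that was higher was the ligand Krn, a relative of Spitz, with 93.2, 79.7, 86.1, 71.7 and 101.7 in tubule, against 45.0, 38.9, 24.3, 54.2 and 37.5 in whole fly (enrichment 2.34 ± 0.833, adjusted p = 0.0027). The major ligand spi gave 129.8, 136.3, 119.8, 122.1 and 115.0 in tubule, against 182.3, 185.0, 197.9, 194.1 and 181.7 in whole fly (enrichment 0.663 ± 0.0575, adjusted p = 0.0022). The groups did not overlap for either ligand, and they lay in opposite directions. S, the chaperone that carries the ligand precursors to their protease, averaged 48.6 ± 9.0 in tubule and 116 ± 17.8 in whole fly (enrichment 0.425 ± 0.0831, adjusted p = 3.2e-04).

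Cbl, the ubiquitin ligase that sends Egfr to degradation, averaged 106 ± 6.58 in tubule and 357 ± 94.6 in whole fly (enrichment 0.316 ± 0.0927, adjusted p = 6.6e-05), and both of its probe sets were called lower. cic, the repressor relieved by this pathway, gave opposite calls as dome did, with log2 fold changes of -0.99 (adjusted p = 0.0034) and 0.83 (adjusted p = 0.023) for its 2 probe sets and of -0.08 (adjusted p = 0.75) for their mean. None of the 5 measured adaptors passed the test. After quantile normalization 4 genes of the list were higher and 3 lower, beside 4148 and 3446 of all 13966 probe sets. With RpL32 held constant 1 was higher and 13 lower, beside 1451 and 6453 of all probe sets. One probe set named for pnt, the ETS factor activated by this pathway, in a supplementary list of the study but given no gene by the annotation is outside these counts, and it gave 43.8, 74.4, 63.2, 68.5 and 64.4 in tubule, against 3.1, 5.4, 1.9, 3.2 and 13.6 in whole fly (log2 fold change 3.86, adjusted p = 1.3e-04). All 5 tubule signals were above all whole fly signals, with within-pair ratios between 4.74 and 33.3. Every whole fly signal was far under 50, where signals carry more relative error.

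In the insulin and TOR list 16 of 27 genes were measured, with a median log2 fold change of -0.39. Of these 2 were higher and 7 lower, beside 16.5% and 40.3% of all genes. Beside InR, foxo, the transcription factor held out of the nucleus by insulin signalling, was higher, with 94.6, 145.6, 125.9, 195.0 and 139.2 in tubule, against 111.4, 74.2, 58.8, 96.3 and 62.9 in whole fly. Tubule array 2 lay below its whole fly partner, and the other 4 pairs ran the other way. The enrichment was 1.84 ± 0.561 (log2 fold change 0.80, adjusted p = 0.015), and the call was lost without pair 3 or 6 (adjusted p = 0.051 in both), with a floor of 50 (adjusted p = 0.069) and with RpL32 held constant (adjusted p = 0.17). Neither of these genes was called with RpL32 held constant. In that setting no gene of the list was higher and 8 were lower, beside 1451 and 6453 of all 13966 probe sets. After quantile normalization 5 were higher and 5 lower, beside 4148 and 3446 of all probe sets.

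The ligand Ilp2, made by neurosecretory cells of the brain, averaged 8.28 ± 2.40 in tubule and 63.6 ± 6.32 in whole fly (enrichment 0.129 ± 0.0322, adjusted p = 3.7e-05). Ilp8, a relaxin-like peptide, had an enrichment of 0.537 ± 0.0959 (adjusted p = 0.0011). ImpL2, a secreted protein that binds insulin-like peptides, averaged 141 ± 51.4 in tubule and 316 ± 108 in whole fly (adjusted p = 0.0097), lower in 4 of 5 pairs and not called with a floor of 50 (adjusted p = 0.071). rictor, a subunit of TOR complex 2, averaged 54.1 ± 6.65 in tubule and 117.5 ± 21.9 in whole fly (enrichment 0.472 ± 0.0951, adjusted p = 5.6e-04). The adaptor chico and the kinases Pdk1, S6k and mTor did not pass the test, although chico (0.50, adjusted p = 0.033) and Pdk1 (0.82, adjusted p = 0.0020) were called higher after quantile normalization and mTor lower with RpL32 held constant (adjusted p = 0.018).

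For the 4 genes with a tubule mean of at least 50, the most similar patterns over the 10 arrays were sought among 5428 probe sets, as the smallest root mean square difference of centred log2 signals. Pvr was nearest to LRR (0.163) and CG10126 (0.186), which had enrichments of 3.96 ± 0.877 and 4.76 ± 1.55. A similar enrichment is built into this distance, since the 10 arrays hold both tissues. InR was nearest to CG2991 (0.118) and ome (0.133), a dipeptidyl peptidase gene. Stat92E was nearest to Snx1 (0.122), a sorting nexin, and to RpL37A (0.128), a protein of the large ribosomal subunit. dome was nearest to CG7492 (0.238) and Cip4 (0.250), an F-BAR protein, both at a larger distance than the neighbours of the other 3 genes.

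The genes varied unequally among arrays of one tissue. In tubule the coefficient of variation was 11.5% for the brighter Stat92E probe set, 19.1% for InR, 19.3% for Delta, 19.7% for Pvr, 44.9% for the brighter dome probe set and 85.1% for esg. In whole fly it was 14.1%, 9.67%, 21.2%, 23.4%, 13.6% and 46.3% for the same probe sets. Among these 6 probe sets esg, whose signals are low, varied most in both tissues, and the brighter dome probe set varied more in tubule than in whole fly, while the dimmer one varied by 20.2% in tubule and 74.0% in whole fly. The brighter dome probe set and Pvr ranked the 5 tubule arrays in the same order, with array 3 lowest and array 6 highest, although Pvr was higher and dome lower in tubule than in whole fly.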

How the data were processed

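RNA of pooled, dissected tubules and of whole flies was hybridised by the authors to Affymetrix Drosophila arrays, and the deposited signal intensity values come from MAS 5.0, with each array scaled to a trimmed mean of 100 (lowest and highest 2% left out). Signals ran between 0.1 and 14002.8, and no detection calls were used here. Low signals, taken as those under 50, carry more relative error, and the number of arrays limits the precision. Of 14010 probe sets, 44 array controls were left out. Of the rest, 12443 had 1 gene in the platform annotation, 327 several and 1196 none, and 12394 were matched to the RefSeq gene table for current symbols.

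Log2 signals of the 10 arrays were fitted in limma 3.58.1 (R 4.3.3), with lmFit, the pair as a block and eBayes with an intensity trend, and p-values were adjusted by Benjamini-Hochberg over 13966 probe sets. The pairing rests on the study's methods, by which tubules and flies of 1 number came from the same culture. The same-numbered arrays did not deviate together in the data (correlations of -0.089 to 0.091 over 6125 probe sets). Enrichments are means of 5 within-pair ratios ± SD. Where a gene had several probe sets, that of the highest mean signal stood for it. The fit was tested on simulated data.

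The genes named were the listed genes, the PVR list and Snail family, the 3 highest and 3 lowest called genes of each other list with a mean of at least 50 in the higher group, and nearest patterns. Other genes are named for their role and were chosen after their values were seen. The genes and lists were chosen with earlier results of these data known. Alternatives were no block, no trend, 16 added to each signal, signals under 50 set to 50, a mean signal of at least 50, quantile normalization, RpL32 held constant, the mean of a gene's probe sets, the methods' t-test, and each pair left out. Pairs 4 and 6 alone were added after seeing the midgut signals.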

Additional observations from a re-analysis of the deposited data

Results flagged for a closer look

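Among the 37 probe sets named, 74 groups of 5 arrays were examined for an array that stood apart from its group by Dixon's criterion, and 4 did, where chance alone flags about 1 group in 20, or 3.7 here. In tubule, esg was 54.8 on array 3, while the other 4 tubule arrays lay between 10.5 and 19.2. In tubule, InR was 47.4 on array 2, while the others lay between 72.0 and 80.5. Likewise the brighter Egfr probe set was 70.0 on tubule array 6 and 34.6 to 41.8 on the others. In whole fly, the dimmer Stat92E probe set was 21.7 on array 3 and 13.7 to 14.5 on the others. The esg and Egfr arrays are the ones that set the exception to the direction of the remaining pairs.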

How the results depend on the processing

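Of the 7 genes, 3 were higher and 2 lower as reported, and of the 82 pathway genes 18 and 30. With signals under 50 set to 50, 1 of the 7 was lower and 15 pathway genes were. With a mean signal of at least 50 required, 1 of 5 tested genes was lower, and 18 of 48 pathway genes. With RpL32 held constant 1 gene was higher and 4 lower, and 9 pathway genes were higher. Reading the mean of a gene's probe sets left 1 lower, with dome at 0.38. At the methods' t-test threshold 1 was lower, and neither dome nor Stat92E was called by its brighter probe set. The dimmer probe set of each was called higher. The study used that threshold on values of the dChip software, with further filters on fold change and difference. Here the t-test was run on log2 MAS 5.0 signals without those filters. After Benjamini-Hochberg adjustment that test gave 3 higher and 2 lower, and 20 and 31 pathway genes. Pairs 4 and 6 alone, chosen after seeing the data, gave 1 higher and 1 lower, and 12 and 19 pathway genes. Leaving out each pair in turn gave 1 to 2 higher and 2 to 3 lower, and 14 to 17 and 25 to 27 pathway genes. Without the pair as a block the counts were 3 and 2, and 19 and 32, and among the 37 probe sets followed across the settings the call of Ced-12 alone changed, to lower (adjusted p = 0.045).

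Quantile normalization gave 2 higher and 2 lower, 54.3% of the pathway calls were then higher, against 37.5% as reported and 17.6% with RpL32 held constant, and over all probe sets the share was 54.6%, 31.6% and 18.4%. Among the same 37 probe sets the log2 fold changes that changed sign were, beside dome above, with quantile normalization, Egfr at 0.21 and 0.56 and Ced-12 at 0.25; with RpL32 held constant, sna at -0.014 and Pvf3 at -0.25; and, with each pair left out in turn, sna, which ran between -0.068 and 0.59, and Pvf3, which ran between -0.17 and 0.35. Holding RpL32 constant moves the log2 fold change of every probe set by the same amount, -0.34. Apart from that shift, and from the floor and the filter, which leave fewer signals to test, the cause of the changes was not tested.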
